A study of Mus musculus with 24 samples.

Results

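RNA sequencing counts of 8 genes of the alternative activation programme, out of the 45706 genes listed for the series, are described in 24 libraries of mouse tissue-resident macrophages (TRMs). The genes were chosen by name as effectors, lectins, receptor and surface ligand of this programme: Retnla, Arg1, Chil3, Mrc1, Mgl2, Clec10a, Il4ra and Pdcd1lg2. The 8 groups of 3 libraries were microglia (MG, brain), Kupffer cells (KCs, liver), peritoneal macrophages (PMs) and alveolar macrophages (AMs, lung), either FACS sorted directly from tissue (ex vivo) or kept as flask cultures named MG-, KC-, PM- and AM-like cells (LCs, in vitro). All mice were female C57BL/6J, with an age of 8 to 12 weeks in the labels, and no group carried an engineered allele or an infection. Neither IL-4 nor IL-13 was among the factors added to the cultures. MG were sorted by CD45 and CD11b, KCs by CD45, CD11b, F4/80 and TIM-4, PMs by CD45, CD11b, F4/80 and CD115, and AMs by CD45, CD11b and SiglecF, so none of the 8 genes was a sorting marker. KC-LCs and PM-LCs were grown with M-CSF and MG-LCs with M-CSF and IL-34, in high glucose and low oxygen. AM-LCs were grown with GM-CSF, without glucose in the medium and at atmospheric oxygen, so that tissue and culture condition cannot be told apart for AM-LCs. A flask held the cells of 3 brains, 3 lungs, 3 peritoneal lavages or 1 liver. The labels number the replicates without saying that they came from separate mice or flasks, so the p-values measure the spread between these libraries.

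Alternative activation is the state that macrophages take up when IL-4 or IL-13 binds a receptor containing IL-4Rα (Il4ra) and the kinases bound to it phosphorylate STAT6. STAT6 then switches on genes for secreted proteins (Retnla, Chil3), arginine breakdown (Arg1), C-type lectins (Mrc1, Mgl2, Clec10a) and inhibitory ligands (Pdcd1lg2). Several of these genes are also expressed by resting TRMs of particular tissues, and AMs are known for high Chil3 and Mrc1 without infection.

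The promoters of 6 of the 8 genes were in the RefSeq promoter table of build GRCm38.p6 (Arg1 and Clec10a had no entry), taken here as the 250 bases before the transcription start. They are shown for the 3 genes that hold a TTC-GAA pair in this window, since this is the letter pattern that STAT proteins recognise. TTC and GAA with 4 bases of any kind between them, the spacing preferred by STAT6, were found in 5.85% of 32851 promoters of the same length, and TTCNNNGAA in 7.02%. Both patterns read the same on either strand. Capitals mark these matches and, in Retnla, TTGCNNAA (a pattern of C/EBP factors, searched on both strands and found in 9.56% of promoters).
Retnla, chr16:48842359-48842608, plus strand: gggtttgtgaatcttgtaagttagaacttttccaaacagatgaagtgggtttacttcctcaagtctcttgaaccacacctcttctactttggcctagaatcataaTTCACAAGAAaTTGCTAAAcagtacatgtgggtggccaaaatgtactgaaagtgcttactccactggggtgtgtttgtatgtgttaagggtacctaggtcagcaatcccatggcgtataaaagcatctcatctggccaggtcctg
Pdcd1lg2, chr19:29410669-29410918, plus strand: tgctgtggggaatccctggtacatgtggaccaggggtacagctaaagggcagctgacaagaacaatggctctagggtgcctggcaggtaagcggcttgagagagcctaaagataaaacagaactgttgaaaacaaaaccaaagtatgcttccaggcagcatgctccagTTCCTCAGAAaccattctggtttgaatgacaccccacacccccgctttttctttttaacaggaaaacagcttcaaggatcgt
Chil3, chr3:106167565-106167814, minus strand: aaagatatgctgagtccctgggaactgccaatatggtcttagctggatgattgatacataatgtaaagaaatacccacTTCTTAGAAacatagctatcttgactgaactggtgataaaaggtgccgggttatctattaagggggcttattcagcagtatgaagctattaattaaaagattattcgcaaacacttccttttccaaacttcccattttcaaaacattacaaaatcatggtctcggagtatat
In Retnla, TTCACAAGAA lay at bases -145 to -136 from the start and TTGCTAAA at -134 to -127, with no overlap between them. In Pdcd1lg2, TTCCTCAGAA lay at -82 to -73. In Chil3 the 9-letter form TTCTTAGAA lay at -172 to -164. None of the searched TTC-GAA patterns was in the windows of Mrc1, Mgl2 or Il4ra. A match is a description of these letters, and binding was not measured.

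Mgl2 and Clec10a are neighbours on chromosome 11 and encode near-identical lectins, so their reads can be confused. The coding sequences were 90.6% identical over 924 aligned bases in the GENCODE vM21 annotation, with an identical run of 183 bases. Among stretches of 90 aligned bases without a gap, one with the most differences is shown, with capitals at the 8 differences. Stretches with gaps in the alignment were not searched. Reads that cover such differences can be assigned.
Mgl2, coding bases 722 to 811: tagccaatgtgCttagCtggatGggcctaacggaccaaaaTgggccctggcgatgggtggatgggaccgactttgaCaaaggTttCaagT
Clec10a, coding bases 674 to 763: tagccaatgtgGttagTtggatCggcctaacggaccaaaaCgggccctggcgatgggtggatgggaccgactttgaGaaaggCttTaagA
Of all 50-base windows of the exons, 13.1% in Mgl2 and 9.02% in Clec10a also occurred in another gene. In Chil3 the share was 26.9%, mostly shared with Chil4, whose coding sequence was 95.4% identical. In Il4ra it was 8.44%, from 571 exon bases that overlap the antisense gene Gm44876, which counting without strand cannot separate. Retnla, Arg1, Mrc1 and Pdcd1lg2 shared no window.

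The libraries held 29569486 to 47105111 counted reads (median 35965750). Levels are given as CPM (counts scaled to library size, with edgeR's TMM factors over the 24 libraries), and a library without a read allowed at most 0.0659 to 0.112 CPM, depending on its depth (3 reads, counting error only). Comparisons between genes use RPKM, the CPM per kb of exon. The 6 macrophage genes tested as a check (Adgre1, Csf1r, Cd68, Fcgr1, Mertk, Itgam) together reached 2700 to 18842 CPM in every library. The 8 genes that mark the 4 tissues' macrophages (such as P2ry12 in MG and Clec4f in KCs) summed to 1560 to 17541 CPM ex vivo and to 27.2 to 645 CPM in vitro, so the markers of the tissues were low in the cultures while the general macrophage genes were present. A few libraries stood apart by RNA of other cells. Fibroblast and mesothelium genes reached 31829 CPM in MG-LC replicate 1, 2202 CPM in PM-LC replicate 2 and 1715 CPM in AM-LC replicate 3. MG-LC replicate 1 also led the MG-LCs in the monocyte genes Ccr2, Ly6c2, Plac8, Vcan and Hp (208 against 0.826 and 10.8 CPM). It led in neutrophil genes (83.9 against 9.81 and 4.51 CPM) and mast cell and basophil genes (41.4 against 0.325 and 2.08 CPM). Its general macrophage sum (2700 against 7793 and 8879 CPM) and B cell sum (2.85 against 39.9 and 12.3 CPM) were the lowest. Dendritic cell genes reached 855 CPM in KC replicate 1, against 114 and 144 CPM in the other KC libraries. KC replicate 1 also led them in B cell (351 CPM), T cell (112 CPM), hepatocyte (243 CPM) and neutrophil genes (147 CPM). Its general macrophage sum was the lowest (6796 against 12217 and 15949 CPM). Its sums of liver endothelial (393 CPM), border-associated macrophage (646 CPM) and eosinophil genes (1.69 CPM) were the lowest too. In bulk RNA, fewer cells of a type and less RNA per cell cannot be told apart.

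**Figure D1:**
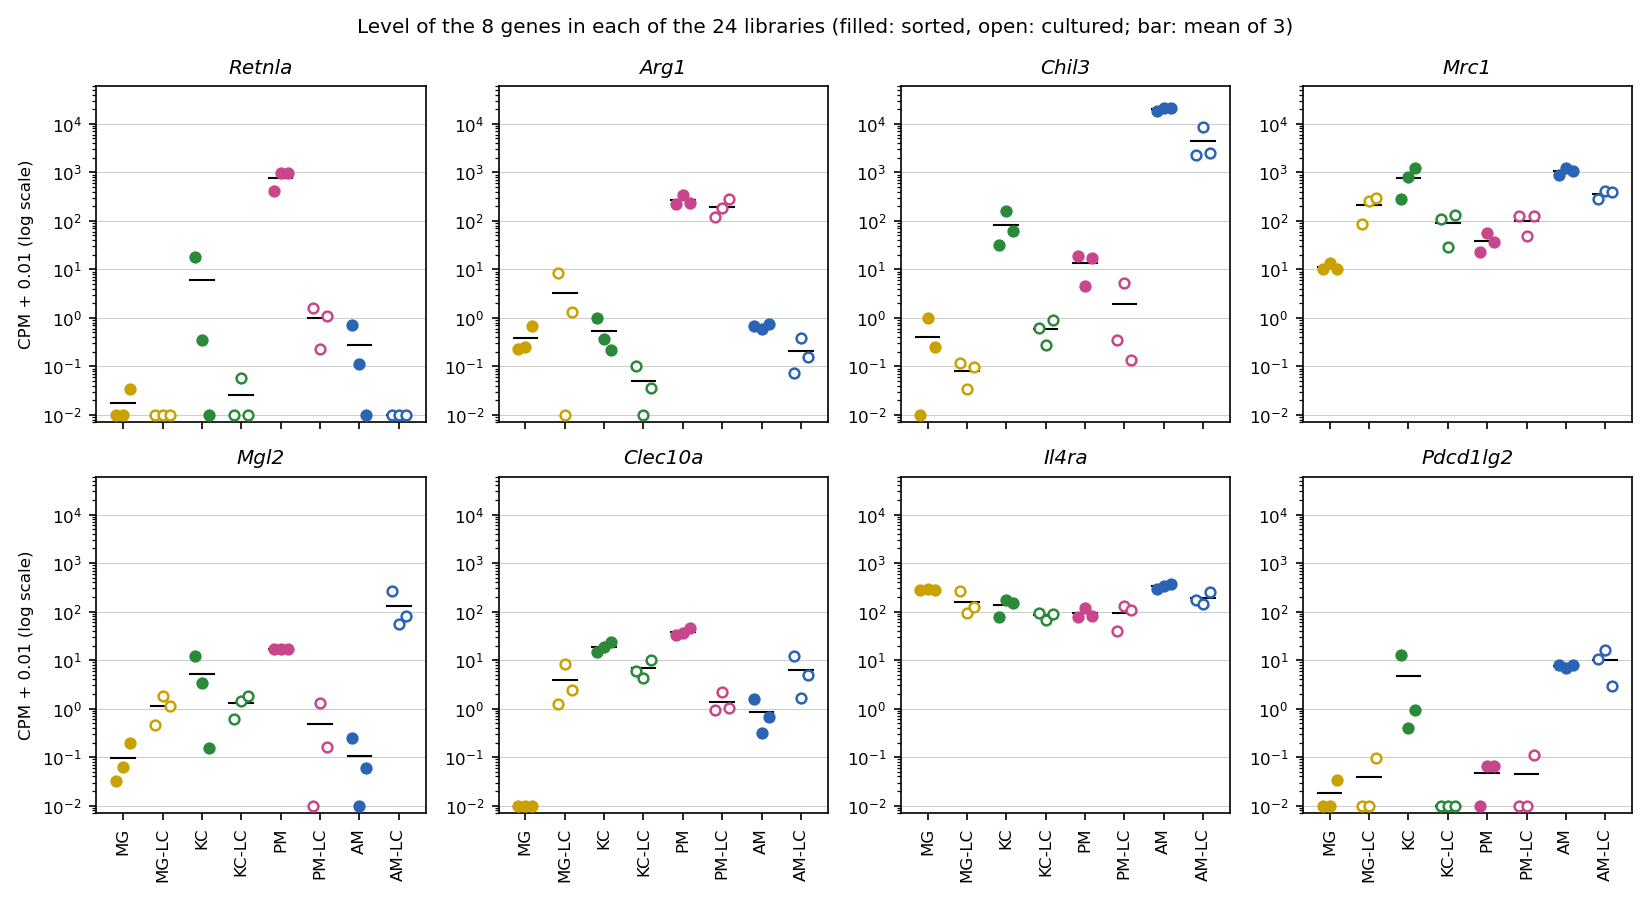
Level of each gene in the 24 libraries, in CPM with 0.01 added on a log axis. Filled points are sorted and open points cultured libraries, bars are means of 3, and Retnla stands high only in PMs (410 to 968 CPM) while Il4ra stays between 40.4 and 362 CPM in every library.

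Retnla encodes RELMα, a small secreted protein that macrophages release in type 2 responses. Its gene lies on chromosome 16 (GRCm38, 48842551 to 48844461, plus strand). In the 3 PM libraries it reached 410, 958 and 968 CPM, and in the PM-LC libraries 1.57, 0.214 and 1.10 CPM. The lowest PM library was above the highest PM-LC library, and the culture mean was 0.124% of the sorted mean (779 ± 319 against 0.964 ± 0.691 CPM, SD, n = 3). The log2 fold change was 9.63 (SE 0.81, adjusted p = 0.000251, edgeR's quasi-likelihood test). Per length, Retnla ranked 28 to 54 among all genes of the PM libraries (1300 RPKM ± 532, SD, n = 3). Elsewhere it was near or at the floor. KCs showed 17.8, 0.339 and 0 CPM, where the high value came from replicate 1. This library had the most dendritic cell RNA and also the highest KC sums for several other cell types. AM libraries held 0.687, 0.104 and 0 CPM, and 1 read was found over the 3 MG libraries. No MG-LC or AM-LC library had a read, and KC-LCs had 2 reads in 1 library. Ex vivo, PMs differed from KCs by 6.99 on the log2 scale (SE 1.54, adjusted p = 0.00474) and from AMs by 11.61 (SE 1.95, adjusted p = 0.000664). KCs were higher than AMs by 4.62 (SE 1.66, adjusted p = 0.0414), but the call was made in only 7 of 19 alternatives. Without KC replicate 1 the difference was -0.46 with an adjusted p of 0.808, and leaving out any MG, PM or AM library gave 3.96 to 6.82 with an adjusted p from 0.0532 to 0.125.

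Arg1 encodes arginase 1, which splits arginine into ornithine and urea, and lies on chromosome 10 (24915221 to 24927484, minus strand). It was high in peritoneal macrophages both before and after culture. The PM libraries held 226, 337 and 234 CPM and the PM-LC libraries 118, 183 and 283 CPM. These ranges overlapped, and the culture mean was 73.3% of the sorted mean. The log2 fold change of 0.43 (SE 0.33) did not pass the test (adjusted p = 0.362), and its 95% interval ran from -0.34 to 1.21. The value passed only without PM-LC replicate 3 (0.82, adjusted p = 0.0498). Ex vivo, PMs exceeded the other populations by 8.66 to 9.49 on the log2 scale (adjusted p = 5.57e-07 or smaller), whereas MG, KCs and AMs did not differ from each other in any pair (adjusted p from 0.21 to 0.668) and held at most 1.01 CPM. Arg1 is a hepatocyte gene too. Hepatocyte marker genes summed to 110 to 243 CPM in the KC libraries, in which Arg1 was at 1.01, 0.365 and 0.206 CPM. MG-LCs showed 8.55, 0 and 1.30 CPM, and the first of these libraries was the one rich in fibroblast RNA. This library also had the highest monocyte, neutrophil and mast cell sums of the MG-LCs, and the part of these cells was not tested. The fold change in MG was -3.13 (SE 1.78, adjusted p = 0.186), and it was -0.81 without that library (adjusted p = 0.674). It passed without MG-LC replicate 2 (-3.70, adjusted p = 0.0369) and with all 24 libraries in 1 model (-3.07, adjusted p = 0.0199).

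Chil3 encodes Ym1, a secreted chitinase-like protein without enzyme activity, and lies on chromosome 3 (106147554 to 106167564, minus strand). The AM libraries held 18354, 21412 and 21023 CPM and the AM-LC libraries 2263, 8540 and 2448 CPM. All AM libraries were above all AM-LC libraries, and the second AM-LC library was above the other 2. Culture kept 21.8% of the sorted mean (log2 fold change 2.19, SE 0.52, adjusted p = 0.0112), a call that was lost with all 24 libraries in 1 model (2.18, SE 1.02, adjusted p = 0.115). Per length, Chil3 was the gene with rank 2 in each AM library (12416 RPKM ± 1020, SD, n = 3) and ranked 9 to 32 in AM-LCs. KCs had a lower level that culture all but removed, with 32.2, 157 and 60.3 CPM ex vivo against 0.611, 0.267 and 0.880 CPM in vitro (log2 fold change 7.13, SE 0.78, adjusted p = 0.000995). Monocytes and neutrophils are other sources of Chil3. The monocyte genes Ccr2, Ly6c2, Plac8, Vcan and Hp summed to 344, 125 and 117 CPM in KCs and to 2.09 to 4.10 CPM in KC-LCs, and the 8 neutrophil genes (such as S100a8 and Ly6g) to 147, 127 and 3.08 CPM in KCs and to 3.64 to 13.98 CPM in KC-LCs. Vcan was at 0 in KC replicates 1 and 3 and Ly6g in replicates 2 and 3. Neither sum had the order of Chil3 over the KC libraries, and their part in the difference was not tested. In PMs the libraries held 19.1, 4.60 and 17.1 CPM against 0.346, 5.27 and 0.128 CPM in PM-LCs. One culture library, replicate 2 with the most fibroblast RNA, overlapped the sorted ones, and the fold change of 2.82 (SE 1.28) did not pass (adjusted p = 0.141). Without that library it was 5.87 with an adjusted p of 0.00226. The same 5 monocyte genes summed to 278 to 448 CPM in PMs and to 13.01, 145 and 10.7 CPM in PM-LCs. Again the highest culture value was in replicate 2. The 8 neutrophil genes went the other way, with 4.85 to 5.73 CPM in PMs and 57.2 to 119 CPM in PM-LCs. They also rose from 103 to 126 CPM in AMs to 332 to 721 CPM in AM-LCs, where Chil3 fell. The part of either list was not tested. Ex vivo the order was AM, KC, PM, MG, with AMs over KCs by 7.94 (SE 1.01, adjusted p = 7.99e-05), KCs over PMs by 2.60 (SE 0.80, adjusted p = 0.0257) and PMs over MG by 5.17 (SE 0.97, adjusted p = 0.00112). The step from KCs to PMs was lost without KC replicate 2 or any PM library (1.69 to 2.92, adjusted p from 0.0528 to 0.0987) and with all 24 libraries in 1 model (0.0762). In vitro, AM-LCs exceeded each of the other cultures by 11.17 to 15.86 (adjusted p from 0.00228 to 0.00638).

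Mrc1 encodes the mannose receptor CD206, which takes up glycoproteins, and lies on chromosome 2 (14229392 to 14332057, plus strand). Its group means spanned 11.3 to 1049 CPM ex vivo and 90.5 to 362 CPM in vitro. AMs held 894, 1203 and 1050 CPM and KCs 276, 800 and 1225 CPM, while PMs held 22.6, 55.2 and 37.3 CPM and MG 10.2, 13.5 and 10.1 CPM. Both high populations were above both low ones in all libraries. In culture AM-LCs held 276, 415 and 393 CPM, KC-LCs 108, 29.5 and 134 CPM, PM-LCs 126, 49.7 and 125 CPM, and MG-LCs 86.9, 259 and 301 CPM. Thus Mrc1 was higher sorted in KCs (3.08, SE 0.69, adjusted p = 0.0127) and AMs (1.52, SE 0.20, adjusted p = 0.000975) and higher cultured in MG (-4.27, SE 0.52, adjusted p = 0.0023). In PMs the fold change of -1.40 (SE 0.44) missed the threshold with an adjusted p of 0.0505, and it was -1.70 with an adjusted p of 0.00771 without PM-LC replicate 2. Ex vivo, AMs and KCs did not differ by the test (difference of KCs to AMs -0.47, SE 0.43, adjusted p = 0.409), and PMs exceeded MG by 1.80 (SE 0.45, adjusted p = 0.0068). In vitro, none of the 6 pairs passed (adjusted p from 0.068 to 0.974). At most 8.59% of all genes passed in any of these pairs, so this does not show equal levels. Marker lists of other cells moved with Mrc1 in some populations and not in others. Genes of border-associated brain macrophages (Cd163, Lyve1, Pf4, F13a1, Cbr2, Ms4a7) summed to 0.852 to 1.08 CPM in MG and 784 to 1077 CPM in MG-LCs, most of it Ms4a7 (mean 689 CPM), with Lyve1 at a mean of 0.0264 CPM and Cd163 at 7.95 CPM. The same list overlapped between KCs (646 to 2414 CPM) and KC-LCs (838 to 1508 CPM). Elsewhere its direction was opposite to that of Mrc1. It summed to 3812 to 4749 CPM in PMs and 557 to 1145 CPM in PM-LCs. In AMs it summed to 12.5 to 27.8 CPM and in AM-LCs to 91.2 to 259 CPM. Liver sinusoidal endothelial genes, from a cell that also expresses Mrc1, summed to 393, 583 and 698 CPM in KC replicates 1, 2 and 3. Of these 8 genes, 7, 5 and 2 were above 1 CPM in the same libraries, so few genes carried the highest sum. In KC-LCs the list summed to 26.2 to 43.7 CPM. Their part in the differences was not tested.

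Mgl2 and Clec10a encode 2 macrophage galactose-type lectins (CD301b and CD301a) and lie on chromosome 11, at 70130329 to 70137550 and 70156197 to 70170834, both on the plus strand. Both were higher sorted in PMs and higher cultured in AMs and MG. In PMs, Mgl2 was at 16.7, 16.8 and 17.2 CPM, and in PM-LCs at 0, 1.29 and 0.154 CPM (log2 fold change 5.13, SE 1.19, adjusted p = 0.0171). Clec10a was at 33.3, 36.2 and 45.7 CPM in PMs and 0.945, 2.24 and 0.999 CPM in PM-LCs (4.77, SE 0.42, adjusted p = 0.000293). Neither gene overlapped between PMs and PM-LCs, and 2.84% of the sorted mean was left in culture for Mgl2 and 3.63% for Clec10a. The Mgl2 call was lost when any of the 3 PM libraries was left out (adjusted p from 0.063 to 0.0701).

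In AMs the direction was the opposite. Mgl2 had 10 reads over the 3 AM libraries (0.239, 0 and 0.0491 CPM) and 261, 55.9 and 80.0 CPM in AM-LCs, with a log2 fold change of -10.48 (SE 1.03, adjusted p = 0.00032). Clec10a was at 1.55, 0.311 and 0.662 CPM in AMs and 12.1, 1.65 and 4.91 CPM in AM-LCs (-2.89, SE 0.87, adjusted p = 0.029). All AM-LC libraries were above all AM libraries for both genes. The Clec10a call was lost without AM-LC replicate 1 (-1.99), AM replicate 2 or AM replicate 3 (adjusted p from 0.0931 to 0.105), while that of Mgl2 was kept without AM-LC replicate 1 (-9.53, adjusted p = 0.000377). Per length, Mgl2 was 22.6 to 47.0 times Clec10a in the 3 AM-LC libraries, whereas Clec10a was 1.43 to 1.92 times Mgl2 in the 3 PM libraries. Clec10a had the same order over the AM-LC libraries as Mgl2, and whether Mgl2 reads were counted for Clec10a was not tested. Mgl2 also marks a class of dendritic cells. The 8 dendritic cell genes (Flt3, Zbtb46, Cd209a, Ccr7, Dpp4, Xcr1, Clec9a, Itgae) summed to 2.95 to 4.99 CPM in AMs and to 178, 54.95 and 67.7 CPM in AM-LCs, in the same order of libraries as Mgl2. Of these genes, Flt3 had no read in AM-LCs, and Ccr7 was the highest with a mean of 33.5 CPM. In PMs the sum was 59.5 to 102 CPM and in PM-LCs 4.72 to 10.6 CPM. Only 2, 2 and 4 of the 8 genes were above 1 CPM in PM replicates 1, 2 and 3, so few genes carried the PM sums. Their part in the differences of the lectins was not tested.

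Clec10a was without a read in all 3 MG libraries and at 1.27, 8.23 and 2.43 CPM in MG-LCs. With 3 reads per MG library as the floor, MG-LCs were at least 54.7-fold higher (adjusted p = 0.00969). Mgl2 was at 0.022, 0.054 and 0.189 CPM in MG and 0.449, 1.85 and 1.13 CPM in MG-LCs (-3.66, SE 0.97, adjusted p = 0.0239), a call that was lost without MG replicate 1, MG replicate 2 or MG-LC replicate 2 (adjusted p from 0.055 to 0.115). KCs held Clec10a at 14.8, 18.2 and 23.1 CPM against 5.95, 4.27 and 10.2 CPM in KC-LCs (1.46, SE 0.42, adjusted p = 0.0307). All sorted libraries were above all cultured ones, and the call was lost when any of 4 libraries was left out (KC replicate 2 or 3, KC-LC replicate 1 or 2, adjusted p from 0.0701 to 0.105) and with all 24 libraries in 1 model (0.123). Mgl2 spread widely in KCs, with 11.9, 3.42 and 0.147 CPM against 0.588, 1.41 and 1.81 CPM in KC-LCs. The groups overlapped, and the fold change of 2.03 (SE 1.25, adjusted p = 0.247) was 0.46 without KC replicate 1. Ex vivo, PMs and KCs did not differ by the test in Mgl2 (adjusted p = 0.243) or Clec10a (adjusted p = 0.0889), and both exceeded AMs and MG in both genes (adjusted p = 0.00639 or smaller). By limma-voom, Mgl2 in KCs did not pass against MG (adjusted p = 0.0591) or AMs (0.0557).

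**Figure D2:**
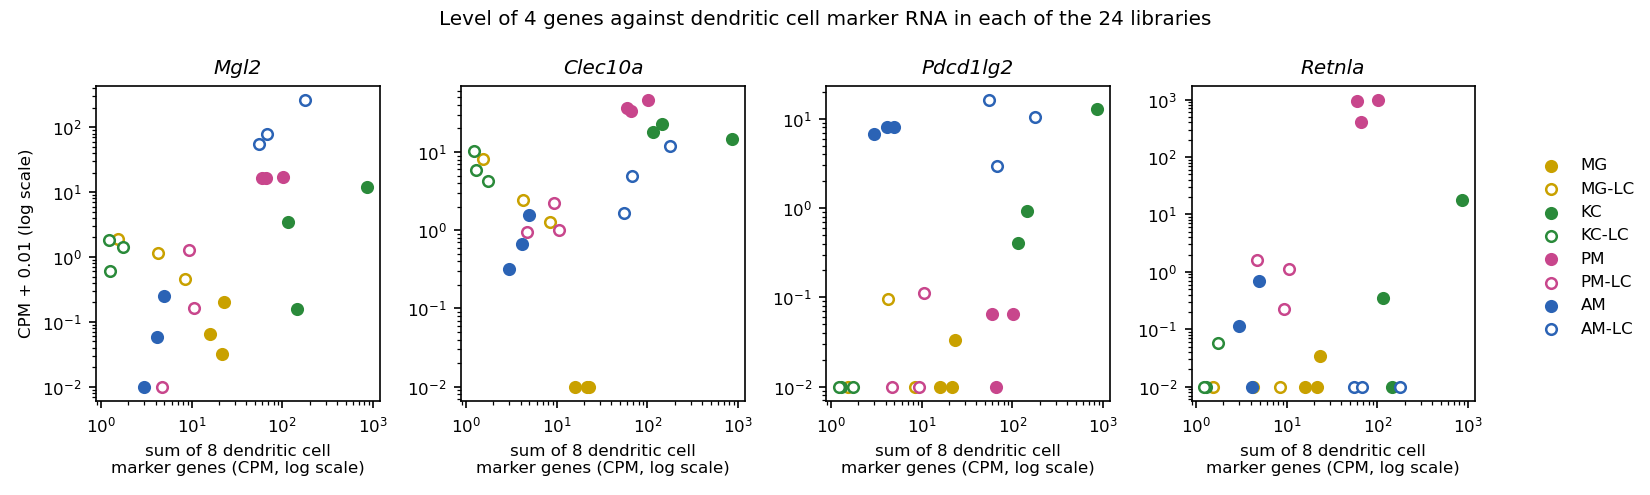
CPM (0.01 added) of 4 genes against the summed CPM of 8 dendritic cell marker genes in the 24 libraries, both axes logarithmic. The rightmost point of each panel is KC replicate 1 (855 CPM of markers), which also had the highest B cell, T cell and hepatocyte sums of the KC libraries. The 3 open blue AM-LC points rise with the markers for Mgl2 (55.9 to 261 CPM) but not for Pdcd1lg2.

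Il4ra encodes the α chain shared by the IL-4 and IL-13 receptors and lies on chromosome 7 (125552120 to 125579474, plus strand). It varied least of the 8 genes, between 40.4 and 362 CPM over all libraries. MG held 275, 287 and 281 CPM and MG-LCs 260, 95.3 and 127 CPM. KCs held 75.5, 177 and 151 CPM and KC-LCs 94.4, 66.8 and 90.6 CPM. PMs held 77.8, 120 and 81.5 CPM and PM-LCs 40.4, 130 and 106 CPM, and AMs held 297, 339 and 362 CPM and AM-LCs 171, 143 and 248 CPM. The sorted and cultured libraries overlapped in KCs and PMs and not in MG and AMs. AMs passed the test, with a higher sorted level (0.81, SE 0.22, adjusted p = 0.0199), and this call was lost without AM replicate 2, AM replicate 3 or AM-LC replicate 1 (adjusted p from 0.0547 to 0.0708) and with all 24 libraries in 1 model (0.111). The fold changes were 0.79 in MG (SE 0.39, adjusted p = 0.137), 0.67 in KCs (SE 0.33, adjusted p = 0.154) and -0.00098 in PMs (SE 0.41, adjusted p = 0.999). Without the fibroblast-rich MG-LC replicate 1, Il4ra passed in MG (1.31, adjusted p = 0.00177), and without KC replicate 1 it passed in KCs (0.94, adjusted p = 0.0175). Ex vivo, AMs and MG did not differ by the test (MG to AMs -0.28, SE 0.26, adjusted p = 0.387), nor did KCs and PMs (0.52, SE 0.26, adjusted p = 0.149), while both of the first exceeded both of the second (1.04 to 1.83, adjusted p from 0.000258 to 0.00826). Per length, Il4ra was the highest of the 8 genes in MG (46.8 RPKM ± 0.952, SD, n = 3), where the effector genes Retnla, Arg1 and Chil3 were each at 0.247 RPKM or lower.

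Pdcd1lg2 encodes PD-L2, a ligand of the inhibitory receptor PD-1, and lies on chromosome 19 (29410919 to 29471161, plus strand). It was read mainly in alveolar libraries, with 8.04, 6.83 and 8.04 CPM in AMs and 10.6, 16.1 and 2.95 CPM in AM-LCs. The culture libraries lay on both sides of the sorted ones (-0.38, SE 0.53, adjusted p = 0.59, 95% interval from -1.63 to 0.88). Without AM-LC replicate 3, the library with fibroblast RNA, the value was -0.82 with an adjusted p of 0.0461. In KCs it was at 12.7, 0.391 and 0.911 CPM. The high value was in the library with the most dendritic cell RNA and the highest KC sums for several other cell types. No KC-LC library had a read. Against a floor of 3 reads per library KCs were at least 64.1-fold higher, and at least 8.93-fold higher without KC replicate 1 (adjusted p = 0.0206 with and 0.0162 without it). The call was lost without any of the 3 KC-LC libraries (adjusted p from 0.0513 to 0.0621). MG and PMs and their cultures held 0 to 4 reads per library. In vitro, AM-LCs exceeded the other cultures (adjusted p from 0.0174 to 0.0367). Among the cultures Pdcd1lg2 passed the count filter through AM-LCs alone and had to differ, so these calls add no evidence. These calls were lost without AM-LC replicate 2 against each culture and without AM-LC replicate 1 against MG-LCs and PM-LCs (adjusted p from 0.0675 to 0.131). Against KC-LCs and PM-LCs they were also lost without any library of those cultures, against MG-LCs without MG-LC replicate 2 or 3, and against PM-LCs without AM-LC replicate 3 (0.0549 to 0.121).

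**Figure D3:**
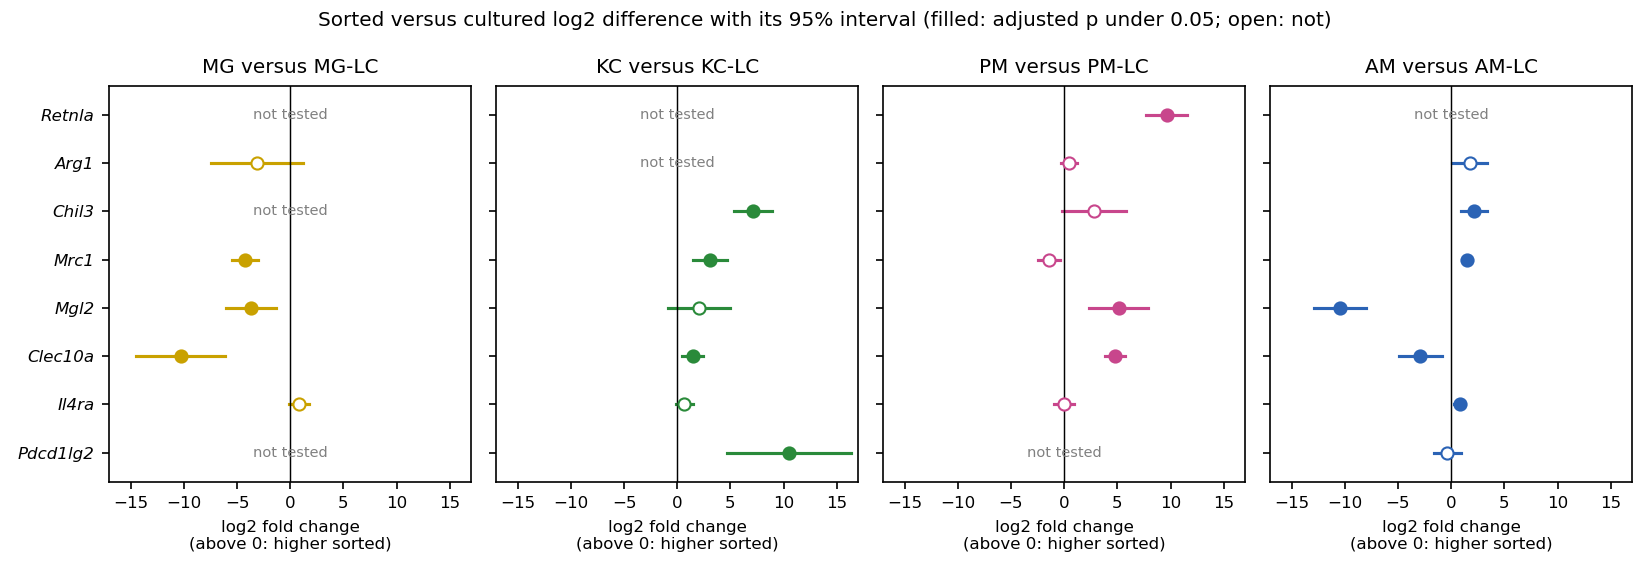
Log2 fold change of sorted over cultured libraries with its 95% interval, for each population. Filled points passed an adjusted p of 0.05, open points did not, and the values of Clec10a in MG and Pdcd1lg2 in KCs come from groups without a read and have no fixed size. Mgl2 and Clec10a lie right of 0 in PMs (5.13 and 4.77) and left of 0 in AMs (-10.48 and -2.89).

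Counted over the 8 genes, the direction of the sorted versus cultured calls differed by tissue. Of 5 genes tested in MG, 3 passed and all were higher cultured, where 46.4% of all genes tested passed (21.2% higher sorted, 25.2% higher cultured). Of 6 tested in KCs, 4 passed and all were higher sorted (all genes 33.8%, with 19.4% higher sorted and 14.4% higher cultured). Of 7 tested in PMs, 3 passed and all were higher sorted (28.9%, with 12.1% and 16.8%). Of 7 tested in AMs, 5 passed, 3 higher sorted and 2 higher cultured (48.7%, with 22.9% and 25.9%). The genes not tested reached the minimum count in too few libraries (Retnla, Chil3 and Pdcd1lg2 in MG, Retnla and Arg1 in KCs, Pdcd1lg2 in PMs, Retnla in AMs). Among these, Retnla in KCs had 655, 13 and 0 reads. Genes that passed the filter through 1 group alone had to differ, so the counts do not stand for the list. Examples are Retnla in PMs, Mgl2 in MG and AMs, Clec10a in MG and Pdcd1lg2 in KCs.

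The difference between sorted and cultured libraries itself varied over the 4 populations for 5 of the 8 genes (interaction test over 24 libraries, 36.3% of all genes). These were Mrc1 (adjusted p = 9.52e-06), Mgl2 (4.39e-05), Clec10a (5.34e-06), Pdcd1lg2 (0.00625) and Arg1 (0.0201), all by edgeR's F test. Arg1 did not pass without MG-LC replicate 1 (adjusted p = 0.102), MG replicate 1 (0.062) or MG replicate 2 (0.0598) or by limma-voom (0.524). Chil3 lay at the threshold (0.0509) and Il4ra did not pass (0.494). For Retnla, read almost entirely in PMs, the adjusted p was 1, and 0.0346 by limma-voom.

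Between sorted populations, 36 of 48 tests of the 8 genes passed. By pair, 7 genes passed for MG against KCs (42.2% of all genes), 7 for MG against PMs (44.7%), 4 for MG against AMs (54.7%), 5 for KCs against PMs (35.8%), 5 for KCs against AMs (43.5%) and 8 for PMs against AMs (36.7%). PMs and AMs divided the list: Retnla, Arg1, Mgl2 and Clec10a were higher in PMs, and Chil3, Mrc1, Il4ra and Pdcd1lg2 in AMs. Between cultures, 10 of 42 tests passed, and all of them involved AM-LCs. None of the genes passed for MG-LCs against KC-LCs (0% of all genes), MG-LCs against PM-LCs (0.0743%) or KC-LCs against PM-LCs (0.108%). As almost no gene of any kind passed in these pairs, a missing call there does not show equal levels. AM-LCs were higher in Chil3, Mgl2 and Pdcd1lg2 than MG-LCs (8.59%), KC-LCs (7.64%) and PM-LCs (5.29%), and lower in Arg1 than PM-LCs (9.93, SE 1.75, adjusted p = 0.0146). Pdcd1lg2 passed the filter among the cultures through AM-LCs alone and had to differ, so its calls add no evidence. The Arg1 call was lost without any AM-LC library (adjusted p from 0.0551 to 0.06), and the Mgl2 calls without MG-LC replicate 3, any KC-LC library or PM-LC replicate 3 in the pair concerned (0.0534 to 0.0654). Arg1 in PM-LCs exceeded KC-LCs by 12.09 on the log2 scale (SE 1.94) and still came to an adjusted p of 0.0507.

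**Figure D4:**
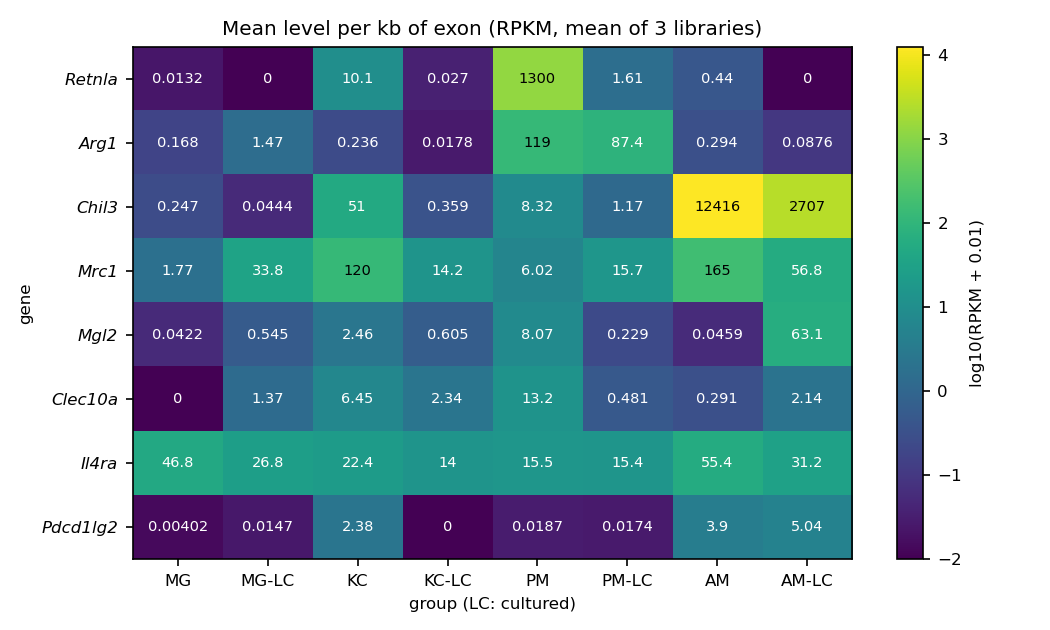
Mean RPKM of each gene in each group (3 libraries), printed in the cells, with the colour on a log10 scale after adding 0.01. The highest cells are Chil3 in AMs (12416) and AM-LCs (2707) and Retnla in PMs (1300), while the PM-LC column keeps Arg1 (87.4) and loses Retnla (1.61).

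IL-4 and IL-13, the cytokines that start the programme, were low or not read. No library of the 24 had a read of Il13, Il5 or Il25, and Il4 had a mean of at most 1.67 CPM in any group (KCs). Of 6 cytokine genes, 3 passed the filter in MG, 2 in KCs and 0 in PMs and AMs. Il4 (-4.03, adjusted p = 0.0378) and Il33 (-11.23, adjusted p = 0.0273) were higher cultured in MG, and Tslp, an alarmin of epithelia, was higher sorted in KCs (5.04, adjusted p = 0.00943). The Il4 call was lost without any MG library or MG-LC replicate 2 or 3 (adjusted p from 0.0593 to 0.153), and the Il33 call without any MG library (0.107 to 0.109) and by limma-voom (0.459). Il33, an alarmin of stromal cells, was at 914, 0.475 and 12.9 CPM in MG-LCs, the order of the fibroblast RNA in these libraries (31829, 7.43 and 1023 CPM). The part of the fibroblast RNA was not tested. Nos2, the nitric oxide synthase that uses the same arginine as Arg1, was at 508, 0 and 18.7 CPM in MG-LCs, again highest in replicate 1. That library also had the highest monocyte and neutrophil sums of the MG-LCs, and their part was not tested. Nos2 was at 2.55 CPM or less in each other culture library. It passed the filter in none of the comparisons within a population, and its interaction over the 24 libraries had an adjusted p of 0.044.

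Genes of the receptor pathway passed at shares on both sides of those of all genes. Of 12 genes (11 tested), MG had none higher sorted and 2 higher cultured. KCs had 4 and 0, PMs 1 and 1, and AMs 5 and 1. The share called was 18.2% in MG and PMs (all genes 46.4% and 28.9%), 36.4% in KCs (33.8%) and 54.5% in AMs (48.7%). Stat6 passed only in AMs (0.72, adjusted p = 0.00316), with means of 412 CPM in AMs and 247 CPM in AM-LCs and of 257 to 387 CPM in the other groups. Ptpn6, a phosphatase, also passed only in AMs (1.00, adjusted p = 0.00198). The interaction over the 4 populations had an adjusted p of 0.113 for Stat6 and 0.734 for Ptpn6.

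Transcription factors of the programme passed in both directions. Of 12 genes, MG had 2 higher sorted and 5 higher cultured, KCs 5 and 2, PMs 3 and 2, and AMs 7 and 3. This came to 58.3% called in MG and KCs (all genes 46.4% and 33.8%), 41.7% in PMs (28.9%) and 83.3% in AMs (48.7%). Egr2, a factor induced by IL-4 in macrophages, was higher cultured in MG (-2.75), KCs (-3.07) and PMs (-6.09) and higher sorted in AMs (1.42). Its mean rose from 4.65 to 31.0 CPM in MG, 5.92 to 49.7 CPM in KCs and 2.71 to 182 CPM in PMs, and was 340 CPM in AMs and 126 CPM in AM-LCs. Ppargc1b, a coactivator of mitochondrial genes, was higher sorted in KCs (3.77), PMs (2.09) and AMs (1.34), and Kdm6b, a histone demethylase, in MG (1.60), KCs (3.53) and AMs (2.87). Cebpb, the factor with the highest mean level, was higher cultured in MG (-2.05) and higher sorted in PMs (0.77) and AMs (1.78). Bhlhe40 passed only in MG (-8.35). Some of these calls were lost when 1 library was left out, namely Kdm6b in MG without any of the MG libraries (adjusted p from 0.0926 to 0.116), Egr2 in KCs without KC replicate 2 or 3 (0.0567 and 0.0577) and Cebpb in PMs without PM replicate 1 or 2 or PM-LC replicate 1 (0.0966 to 0.12).

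Other targets of alternative activation were more often higher cultured than higher sorted in MG, PMs and AMs. Of 16 genes, 10 of 13 tested were higher cultured in MG and 1 higher sorted (median log2 fold change -4.37, against -0.03 for all genes). In PMs it was 8 and 3 of 12 (median -3.24), in AMs 7 and 2 of 15 (median -1.03), and in KCs 6 and 7 of 15 (median 1.73), where the median of all genes was -0.01, -0.04 and 0.01. The share called was 84.6% in MG, 91.7% in PMs, 60.0% in AMs and 86.7% in KCs, against 46.4%, 28.9%, 48.7% and 33.8% of all genes. Mmp12, the macrophage elastase, Cd36, a scavenger receptor, and Cd200r1, an inhibitory receptor, were higher cultured in all 4 populations. Mmp12 rose from means of 3.06 CPM in PMs to 18603 CPM in PM-LCs and from 18.5 CPM in AMs to 26720 CPM in AM-LCs (log2 fold changes -12.58 and -10.51, adjusted p = 2.63e-05 and 4.97e-06). Cd36 changed by -1.64 to -9.90 and Cd200r1 by -1.03 to -2.21. Ch25h and Flt1 were higher cultured in MG, KCs and PMs, and Flt1 was higher sorted in AMs (1.74). Ccl24, a chemokine for eosinophils, moved the other way, from 4.27 to 0.232 CPM in MG, 262 to 0.709 CPM in KCs and 444 to 1.51 CPM in PMs. Fn1 was higher cultured in MG (-12.55) and higher sorted in PMs (5.19). MG-LC replicate 1 held 31829 CPM of fibroblast and mesothelium genes, and the part of this RNA in the Fn1 difference was not tested. By limma-voom, Fn1 (adjusted p = 0.209) and Flt1 (0.0859) did not pass in MG. In MG the calls of Ch25h, Flt1, Ccl24 and Fn1 were each lost without any of the 3 MG libraries (adjusted p from 0.0525 to 0.117), and that of Ccl24 also without MG-LC replicate 3 (0.0773). In KCs that of Ch25h was lost without any of 4 libraries (KC or KC-LC replicate 2 or 3, 0.0545 to 0.0821) and that of Cd36 without KC replicate 3 or KC-LC replicate 2 or 3 (0.0698 to 0.0836). In AMs, Egr2 and Flt1 did not pass with all 24 libraries in 1 model (0.118 and 0.0696).

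Arginine and polyamine genes beside Arg1 were higher in culture where they passed, apart from Arg2 in KCs (3.73) and Slc7a2 in AMs (0.78). Of 10 genes (9 tested), the number higher cultured was 6 (MG), 1 (KC), 4 (PM) and 5 (AM), and the number higher sorted 0, 1, 0 and 1. Calls made up 66.7% of those tested for MG and AMs (all genes 46.4% and 48.7%) and 44.4% for PMs (28.9%). For KCs the share was 22.2%, below the 33.8% of all genes. Odc1, the first enzyme of polyamine synthesis from ornithine, was higher cultured in all 4 populations (-1.49 in AMs to -3.45 in MG). Ass1, which rebuilds arginine, was higher cultured in MG, PMs and AMs. Oat was higher cultured in MG (-1.83) and AMs (-0.70). The Ass1 call in MG was lost without any MG library or MG-LC replicate 2 (adjusted p from 0.0557 to 0.0949), that of Arg2 in KCs without KC-LC replicate 2 (0.0567), and that of Slc7a2 in AMs without any AM library or AM-LC replicate 3 (0.0514 to 0.0859) and with all 24 libraries in 1 model (0.518). Slc7a2, an arginine transporter, was at a mean of 94.1 CPM in PMs and 182 CPM in PM-LCs, and this difference did not pass (-0.97, adjusted p = 0.395).

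**Figure D5:**
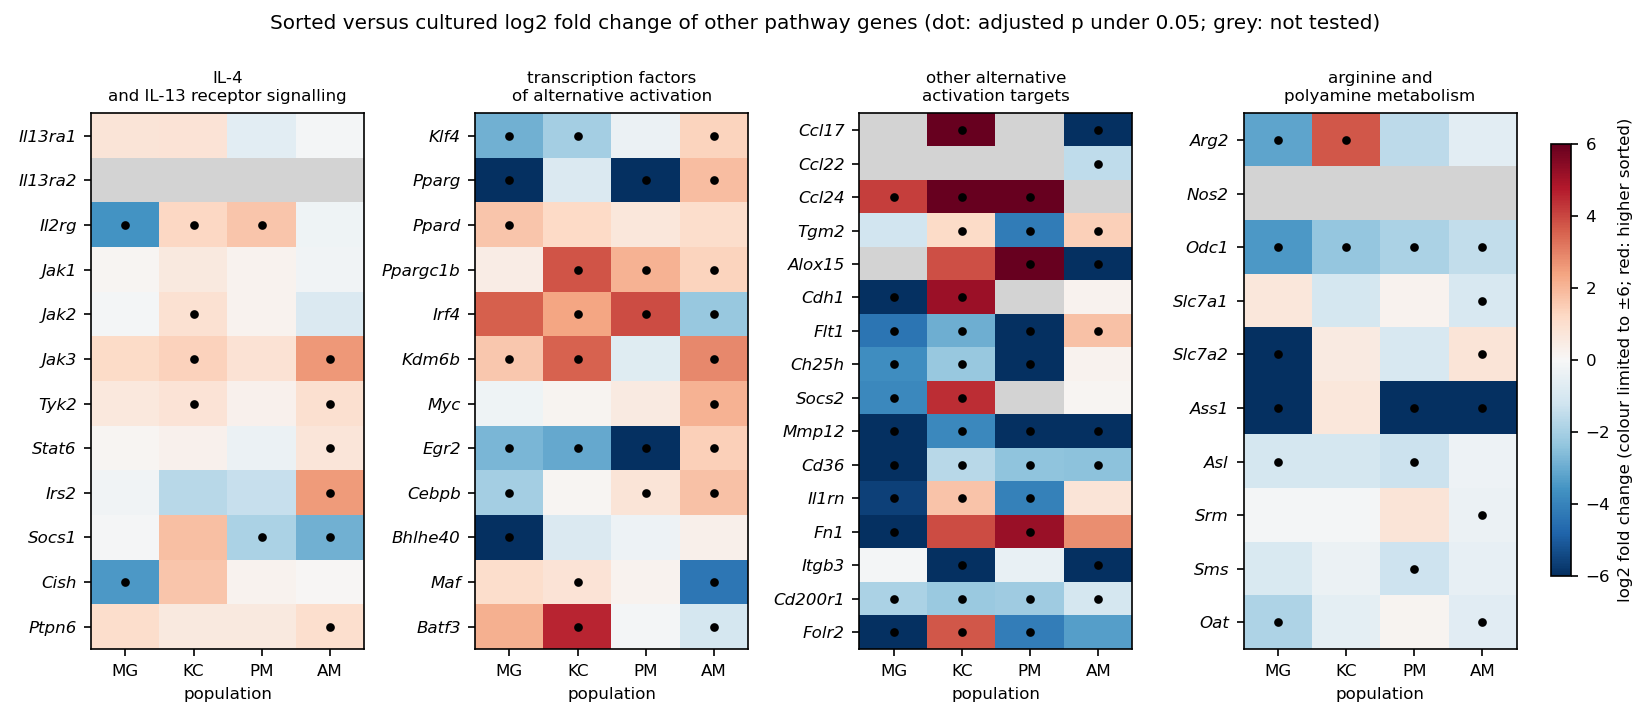
Log2 fold change of sorted over cultured libraries for 4 lists of other pathway genes in each population, with colour limited to 6 in either direction. Dots mark an adjusted p under 0.05 and grey cells were not tested; Mmp12, Cd36, Cd200r1 and Odc1 are blue (higher cultured) in all 4 populations.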

How the data were processed

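RNA of the 24 samples was converted to cDNA with the SMARTer kit, made into libraries with Nextera XT and sequenced as single reads without strand. The authors trimmed the reads with Trimmomatic, aligned them to mm10 with STAR and deposited raw counts of reads per gene, without normalization. The submitters' processing notes name Trimmomatic 0.36, STAR 2.5.2b and the build hg19, whereas the identifiers are mouse Ensembl genes and the study's methods name mm10. How reads that fit several genes were treated is not given in the sources used here. Symbols, exon lengths and coordinates came from GENCODE vM21, which gave a symbol for 45143 of the 45706 identifiers.

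The analyses used R 4.3.3 with edgeR 4.0.16, limma 3.58.1 and DESeq2 1.42.0. Each comparison was a two-sided edgeR quasi-likelihood test after TMM scaling and filterByExpr (minimum count 10), with p-values adjusted by Benjamini-Hochberg over all genes tested and a threshold of 0.05. Sorted and cultured libraries were compared within each population (6 libraries), populations over the 12 sorted or 12 cultured libraries, and the interaction over all 24. Log2 fold changes above 0 stand for a higher level ex vivo, log2 CPM for correlations had a prior count of 2, and ± gives the SD. The procedure was tested on simulated data. The 8 genes and the pathway and marker lists were chosen with earlier results of these data known. Of the pathway lists, the text names genes called in 1 direction in at least 3 populations, the 2 with the highest mean CPM, and the cytokines and Nos2. DESeq2, limma-voom, other filters, thresholds and size factors (RLE), 1 model of all libraries, a replicate block and leaving out libraries were tried as alternatives. No batch is given in the labels, and replicates of a group differed by more than counting error. The monocyte list is given without 1 of its genes, which is not reported here.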

Additional observations from a re-analysis of the deposited data

Results flagged for a closer look

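The difference between sorted and cultured libraries was not the same in the 4 populations for 5 of the 8 genes, by an F test of the interaction over 24 libraries in edgeR with Benjamini-Hochberg adjustment. For Clec10a (adjusted p = 5.34e-06) the sorted level was higher in KCs and PMs and lower in MG and AMs, by fits within each population. Mgl2 (adjusted p = 4.39e-05) was higher sorted in PMs and higher cultured in MG and AMs. Mrc1 (adjusted p = 9.52e-06) was higher sorted in KCs and AMs and higher cultured in MG. Pdcd1lg2 (adjusted p = 0.00625) was higher sorted in KCs, with most of its reads in KC replicate 1, and did not pass in AMs. For Arg1 (adjusted p = 0.0201) the fold changes ran from -3.13 in MG to 1.73 in AMs, and no single population passed with all its libraries. Arg1 passed in MG without MG-LC replicate 2 (adjusted p = 0.0369) and with all 24 libraries in 1 model (0.0199), and in AMs without AM-LC replicate 2 (2.58, adjusted p = 0.0364). Groups of 3 libraries were too small for a test of single outlying libraries.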

How the results depend on the processing

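Of the 15 sorted versus cultured calls, 8 were called in every alternative that gave a value: Mrc1 in MG, KCs and AMs, Clec10a in MG and PMs, Chil3 in KCs, Retnla in PMs and Mgl2 in AMs. Among these, Clec10a in MG, Retnla in PMs and Mgl2 in AMs passed the count filter through 1 group alone and had to differ. Their calls in every alternative therefore add no evidence. The number of genes called in PMs was 3, and 5 with DESeq2. In AMs it was 5, and 3 with all 24 libraries in 1 model, where Chil3 and Il4ra were lost. Calls over pairs of cultures were 10, and 16 with DESeq2 or with all 24 libraries in 1 model. Leaving out 1 library at a time gave 2 to 4 genes called in MG, 2 to 5 in KCs (main 4, with 2 without KC-LC replicate 1 or 2), 2 to 5 in PMs (5 without PM-LC replicate 2), 3 to 6 in AMs (3 without AM replicate 2, AM replicate 3 or AM-LC replicate 1), 34 to 37 calls over sorted pairs, 6 to 13 over cultured pairs (6 without AM-LC replicate 2) and 4 to 6 genes with an interaction. The causes were not tested.

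The sign of 3 values changed. Il4ra in PMs, at -0.00098, was 0.13 with limma-voom, 0.015 with DESeq2 and with RLE size factors, 0.0057 without a filter, 0.0056 with a filter of 1 CPM, 0.0053 with all 24 libraries in 1 model, and -0.35 to 0.37 with a library left out (0.12, 0.10, 0.37 and 0.13 without PM replicate 1, PM replicate 3, PM-LC replicate 2 and PM-LC replicate 3). Pdcd1lg2 in AMs was -0.82 to 0.16 over the fits without 1 library (0.16 without AM-LC replicate 2), and Retnla in KCs against AMs -0.46 to 6.82 (-0.46 without KC replicate 1).

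The replicate numbers showed no sign of pairing: the correlation of same-numbered libraries' deviations from their group means was -0.104 to 0.0562 over 12 pairs. Sorted and cultured cells may share little of their spread, so this cannot exclude pairing, and the labels do not state it. With the replicate block, the calls were 3 (MG), 4 (KC), 3 (PM) and 5 (AM), with 34 and 9 tests over sorted and cultured pairs and 5 interactions, and Il4ra in PMs was at 0.13.

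Counts of a few reads (Retnla outside PMs, Pdcd1lg2 in MG and PMs, Mgl2 in MG and AMs) limit fold changes, and a gene without a read has no fitted fold change of fixed size.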

Other observations

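Relatives of the 8 genes had levels of their own. Chil4, the near copy of Chil3, was read in AMs at a mean of 3.82 CPM and in AM-LCs at 0.945 CPM (log2 fold change 2.00, adjusted p = 0.0253, edgeR's quasi-likelihood test), beside 20263 and 4417 CPM of Chil3. The Chil4 call was lost without any AM library or AM-LC replicate 1 or 3 (adjusted p from 0.0586 to 0.0837) and with all 24 libraries in 1 model (0.166). Retnlb, a RELM gene of the gut, had no read in any library. Retnlg was at a mean of 4.44 CPM in KCs and at 0.0111 CPM or less elsewhere. Cd274, which encodes the other PD-1 ligand PD-L1, was at 266 CPM in AMs and 345 CPM in AM-LCs (adjusted p = 0.0841) and was higher cultured in MG (-2.13, adjusted p = 0.00272) and PMs (-4.34, adjusted p = 0.00033). Ly75, a lectin receptor of the same family as Mrc1, was higher sorted in KCs (4.89) and AMs (1.37) and higher cultured in MG (-4.75). The Ly75 calls were lost in AMs without AM replicate 2 or 3 or AM-LC replicate 3 (adjusted p from 0.0676 to 0.0861) and in MG without any MG library or MG-LC replicate 1 or 3 (0.0531 to 0.144).

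The 8 genes did not share 1 pattern over the 8 group means (Pearson's r of log2 CPM, n = 8 groups, a description in which sorted and cultured groups of a tissue share their origin). Chil3 and Pdcd1lg2 were the closest pair (r = 0.95), followed by Mrc1 and Pdcd1lg2 (0.81), Retnla and Arg1 (0.79), Chil3 and Mrc1 (0.71) and Mgl2 and Clec10a (0.68). Il4ra and Clec10a were the most opposed (-0.66). Of 17407 genes, those most like Retnla were Asb14, Cyp26a1 and Gm12972 (r from 0.98 to 0.99), those most like Arg1 Prss35, Igkv14-126 and Ighv11-2 (0.97), those most like Chil3 Cd2, Gm9733 and Tespa1 (0.97 to 0.98), those most like Mrc1 Axl, Tfec and Il1rn (0.94 to 0.97), those most like Mgl2 Wfdc3, 0610009E02Rik and Rps29 (0.93 to 0.94), those most like Clec10a Aph1b, Cfp and Gm8276 (0.94 to 0.96), those most like Il4ra Tmem245, Adtrp and Gpd1 (0.96 to 0.99), and those most like Pdcd1lg2 Plet1, Gm9733 and Slc36a3os (0.98). Over the 24 libraries Pearson's r of all these genes was lower, from 0.57 (Gm8276 with Clec10a) to 0.93 (Cd2 with Chil3). By Spearman's rank over the 8 group means, those named for Arg1 had 0.66 (Prss35) and 0.44 (Igkv14-126 and Ighv11-2).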
